A study of Mus musculus with 6 samples.

Results

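The H3K4 methyltransferases work in protein complexes, and this account concerns the genes of the subunits that carry no catalytic activity. The 10 genes are Ash2l, Wdr5, Rbbp5, Dpy30, Cxxc1, Wdr82, Hcfc1, Men1, Paxip1 and Ncoa6. They were taken by name, as known partners of the Set1 and MLL enzymes, and the rule that chose them used no measured value, although earlier results of these data were known. All 10 are among the 45706 genes of the count table, and all 10 were among the 15184 genes left by a filter on low counts. RNA of LSK cells (Lin- Sca-1+ c-Kit+, the bone marrow compartment of hematopoietic stem and progenitor cells, HSPCs) was sequenced from 3 Ctrl mice (Setd1b HET, FD/+; RC/+) and 3 cKO mice (Setd1b HOM, FD/FD; RC/+), with 1 library per mouse. All 6 animals were C57BL/6 males carrying 1 copy of the ubiquitous, tamoxifen-inducible Rosa26-Cre-ERT2 transgene (RC), and all received 4.5 mg tamoxifen per day by gavage for 4 days and, after a pause of 3 days, for 2 more days. These days are as the labels give them and make 1 dose more than the study's methods count. The mice were analyzed 3 days after the last dose, at an age of 16 weeks, or 17 weeks for cKO mouse AH74. Since the Ctrl mice carry 1 conditional allele as well, the comparison is between mice with 2 and mice with 1 conditional copy of Setd1b.

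Methylation of lysine 4 of histone H3 marks promoters and enhancers of active genes. In mammals it is laid down by Setd1a and Setd1b, by Mll1 and Mll2 (genes Kmt2a and Kmt2b) and by Mll3 and Mll4 (genes Kmt2c and Kmt2d), each of which is nearly inactive alone. The core of Wdr5, Rbbp5, Ash2l and Dpy30 (WRAD) binds the SET domain of every one of them and stimulates its activity. Cxxc1 (also named Cfp1) and Wdr82 belong to the Setd1a and Setd1b complexes, where Cxxc1 reads unmethylated CpG and Wdr82 binds the phosphorylated tail of RNA polymerase II near start sites. Hcfc1 is a cofactor in the Set1 and the Mll1/Mll2 complexes, Men1 encodes menin of the Mll1/Mll2 complexes, and Paxip1 (PTIP) and Ncoa6 belong to the Mll3/Mll4 complexes. In blood formation, the WRAD subunit Dpy30 and Cxxc1 are known to be needed by HSPCs, and menin is known as the anchor of Mll1 fusion proteins in leukemia.

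Between 13003573 and 21277519 reads were counted on genes per Ctrl library and between 14260925 and 15265730 per cKO library, and the 10 subunit genes together took between 0.128% and 0.134% of them. TMM scaling factors lay between 0.945 and 1.03. CPM is the count of a gene relative to the TMM-scaled total of its library. The targeted gene, Setd1b, was read at 221, 194 and 223 CPM in the Ctrl mice AI03, AI54 and AI56. In the cKO mice AI02, AI55 and AH74 it was read at 272, 288 and 314 CPM. Its total count was thus higher under the cKO label, and directions are given here as libraries labelled cKO against Ctrl. By the study's design, Cre removes a single exon of Setd1b and shifts the reading frame. The deposited counts are per gene and cannot show whether this conditional exon was lost. The study reported complete recombination by PCR in sorted stem and progenitor cells. It also reported loss of Setd1b mRNA in sorted multipotential progenitors, by qRT-PCR with a primer in that exon. Both were measured at later times after tamoxifen. By the library numbers in the file header, the libraries fall into 2 sets, called library series here, of which the first holds AI02, AI55 and AI03 and the second holds AH74, AI54 and AI56. The first thus has a single Ctrl library (AI03) and the second a single cKO library (AH74). Every difference within a series rests on 1 library on that side. LSK markers were present, with 10 of 10 listed genes tested and a summed level of 1527 to 1725 CPM in Ctrl and 1575 to 1667 CPM in the libraries labelled cKO. The LSK genes that rose under the cKO label past an adjusted p of 0.05 included Procr and Mecom, and 0 fell past it. Over the 10 genes, 6 log2 fold changes lay above and 4 below 0, with Flt3 at -0.31 (adjusted p = 0.12). Listed granulocyte and monocyte genes summed to 2859 to 3447 CPM in Ctrl and 508 to 809 CPM under the cKO label, where 5 of the 6 tested fell and 1, Itgam, rose. The erythroid list summed to 33.9 to 61.0 and 14 to 19.4 CPM, the megakaryocyte list to 134 to 165 and 134 to 201 CPM, the stromal and endothelial list to 116 to 128 and 96.8 to 98.9 CPM, the B cell list to 17.3 to 21.5 and 17.5 to 21.3 CPM and the T and NK cell list to 3.20 to 4.05 and 3.75 to 4.28 CPM, with Cd3d, Cd3e and Ms4a1 at no more than 1 read in a library. Past the threshold, 1 of 4 tested erythroid genes fell, 1 of 5 megakaryocyte genes rose and 1 fell, 1 of 3 stromal and endothelial genes rose and 2 fell, 1 of 3 B cell genes fell and 0 of 2 T and NK cell genes changed. Of all genes tested, 7.67% passed in either direction. Pecam1 made up most of the stromal and endothelial sum, with means of 115.6 CPM in Ctrl and 92.2 CPM under the cKO label. The other tested genes of that list had low means and opposite directions. Kdr rose from 0.945 to 3.57 CPM, and Cxcl12 fell from 4.26 to 1.02 CPM. The part of these marker differences in the results below was not tested. In these bulk counts, fewer cells of a type and less RNA per cell cannot be told apart. The study described the LSK composition at this stage as largely like that of controls. It also reported lower levels of selected genes by qRT-PCR in sorted LSK populations of cKO mice.

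The first question was whether the genes of the remaining subunits changed between the genotypes. None of the 10 passed an adjusted p of 0.05 in edgeR's quasi-likelihood fit, adjusted by Benjamini-Hochberg over all genes tested, where 7.67% of all 15184 genes passed. None had an unadjusted p under 0.05 either, and the same count of 0 was reached with DESeq2, at both the adjusted and the unadjusted level. Of the 4756 genes with a mean expression in the range of the 10 subunits (41.5 to 436 CPM), 10.8% passed, so the subunit genes lay in a range of expression in which changes were called. The smallest absolute log2 fold change called in that range was 0.21, and the largest among the subunits was 0.16. Their fitted log2 fold changes ran from -0.14 (Wdr5) to 0.16 (Men1), with 4 above and 6 below 0 and a median of -0.02, and all genes tested had a median of 0.00. The median absolute log2 fold change was 0.06 among the subunits, 0.11 among the genes of the same range of expression and 0.16 among all genes tested. All 10 intervals (95%, not adjusted for the number of genes) included 0, and together they reached from -0.31 to 0.34 on the log2 scale, that is, from 0.805-fold to 1.27-fold of Ctrl. A p that misses the threshold does not show that a gene did not differ. The intervals give, gene by gene, the sizes that this fit leaves possible. Other processing moved the fitted values themselves, as described below.

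**Figure D1:**
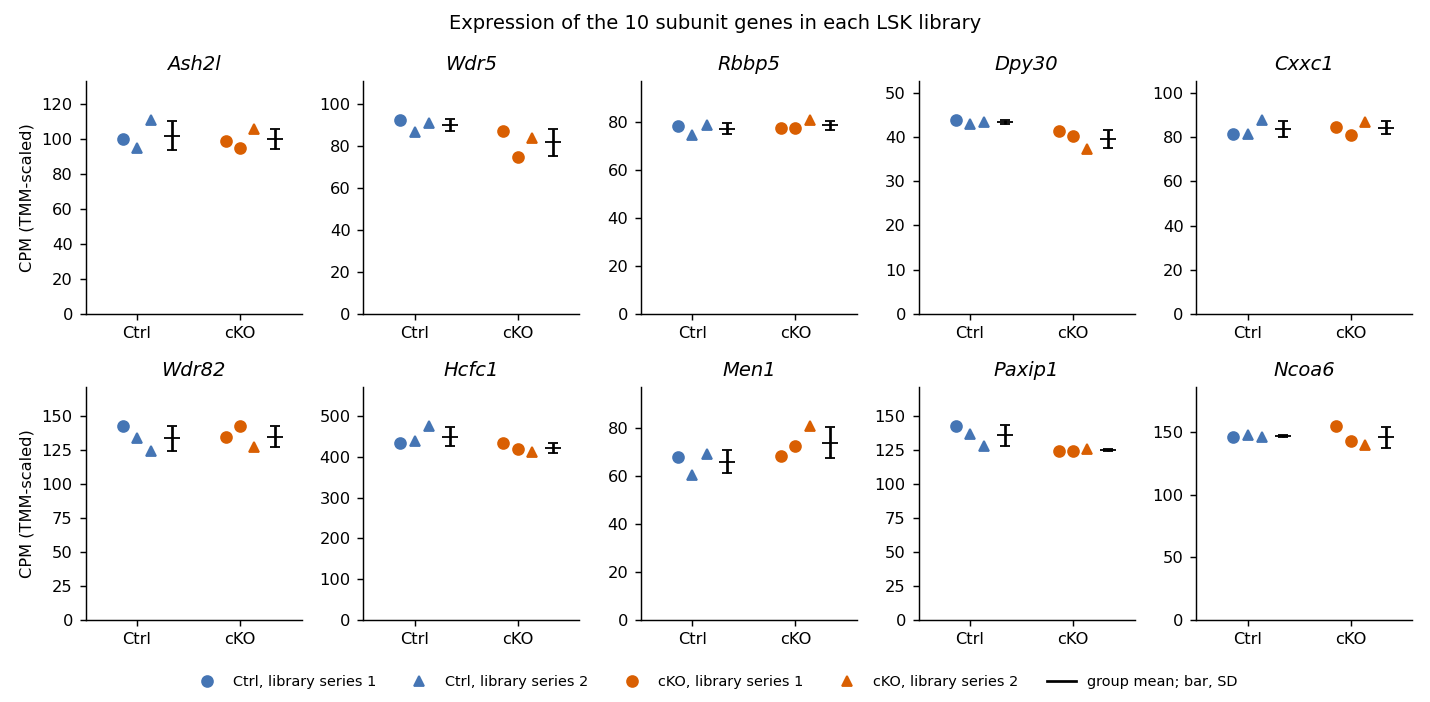
Each panel shows the TMM-scaled CPM of 1 subunit gene (y axis, from 0) in the 3 Ctrl (blue) and the 3 cKO libraries (orange). Circles and triangles mark the first and the second library series, and the bar beside them gives the group mean with its SD. The groups overlap in 8 panels, and in Dpy30 and Paxip1 every library labelled cKO lies below every Ctrl library.

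Ash2l (ENSMUSG00000031575, chromosome 8 from 25816191 to 25847694 in GRCm38), the subunit that with Rbbp5 joins the SET domain, had 99.5, 94.9 and 111 CPM in the Ctrl mice AI03, AI54 and AI56 and 98.6, 94.5 and 106 CPM in the cKO mice AI02, AI55 and AH74. The groups overlapped over most of their range, with a log2 fold change of -0.03 (standard error, SE, 0.076, adjusted p = 0.86) and an interval from -0.19 to 0.13. Rbbp5 (ENSMUSG00000026439, chromosome 1 from 132477365 to 132505659) was the steadiest of the core genes, at 78.3, 74.7 and 78.6 CPM in Ctrl and 77.5, 77.4 and 80.8 CPM in the libraries labelled cKO, in the same order of mice. Its log2 fold change was 0.03 (SE 0.069, adjusted p = 0.87). The SD between mice of one group, pooled over both groups on the log2 scale, was 0.038 for Rbbp5 and had a median of 0.058 over the 10 subunits, against 0.088 over the genes of the same range of expression.

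Wdr5 (ENSMUSG00000026917, chromosome 2 from 27515157 to 27536535), the WD40 protein that holds the enzyme by its WIN motif, had 92.3, 86.5 and 90.5 CPM in Ctrl and 86.9, 74.5 and 83.6 CPM in the libraries labelled cKO. A single pair of libraries made the groups overlap, since cKO mouse AI02 lay just above Ctrl mouse AI54. Its log2 fold change came to -0.14 (SE 0.075, adjusted p = 0.30) and the interval ran from -0.30 to 0.02. Lower values were found in both library series, by -0.20 in the first and -0.08 in the second on the log2 CPM scale, and without cKO mouse AI55 the log2 fold change was -0.07. Dpy30 (ENSMUSG00000024067, chromosome 17 from 74299474 to 74323944), the smallest subunit, which binds Ash2l, had 43.9, 43.0 and 43.4 CPM in Ctrl and 41.3, 40.3 and 37.3 CPM in the libraries labelled cKO. All 3 values of the libraries labelled cKO lay below all 3 of Ctrl, and the largest gap was that of cKO mouse AH74. With a log2 fold change of -0.13 (SE 0.085, adjusted p = 0.39, interval from -0.31 to 0.05), the difference did not pass the threshold. The library series gave -0.11 and -0.21, and with the length trend of the libraries removed the log2 fold change was -0.07.

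Cxxc1 and Wdr82 are the subunits that, among the H3K4 enzymes, Setd1a and Setd1b have to themselves. Cxxc1 (ENSMUSG00000024560, chromosome 18 from 74216131 to 74221491) had 81.3, 81.8 and 88.0 CPM in Ctrl and 84.8, 81.3 and 87.2 CPM in the libraries labelled cKO. For Wdr82 (ENSMUSG00000020257, chromosome 9 from 106170928 to 106191136) the values were 142, 134 and 124 CPM in Ctrl and 135, 143 and 127 CPM in the libraries labelled cKO. Both genes spanned nearly the same range in either group. The log2 fold changes were 0.01 (SE 0.070, adjusted p = 0.95, interval from -0.14 to 0.16) for Cxxc1 and 0.01 (SE 0.071, adjusted p = 0.94, interval from -0.14 to 0.17) for Wdr82, and the sign of each depended on the processing.

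Hcfc1 (ENSMUSG00000031386, X chromosome from 73942792 to 73966357), the host cell factor that tethers the complexes to promoter-bound transcription factors, was the most abundant of the 10 genes. Its values were 435, 439 and 476 CPM in Ctrl and 435, 419.6 and 411 CPM in the libraries labelled cKO. Ctrl mouse AI03 and cKO mouse AI02 had nearly the same level, and the other 2 libraries labelled cKO lay below every Ctrl library. Between the groups this gave -0.09 on the log2 scale (SE 0.062, adjusted p = 0.41), with an interval from -0.22 to 0.04. Without Ctrl mouse AI56 the value was -0.05, and with the length trend removed it was -0.17. Men1 (ENSMUSG00000024947, chromosome 19 from 6334979 to 6340891) had the largest difference and the smallest unadjusted p of the 10 genes (0.070). It was read at 67.9, 60.4 and 69.0 CPM in Ctrl and at 68.1, 72.2 and 80.7 CPM in the libraries labelled cKO. Of these 3, AI02 lay within the range of Ctrl and the other 2 above it. The log2 fold change of 0.16 (SE 0.084, adjusted p = 0.26, interval from -0.02 to 0.34) was made mainly by the second library series, where the difference was 0.32 against 0.05 in the first. Without cKO mouse AH74, the one aged 17 weeks, it was 0.09, and without Ctrl mouse AI54 it was 0.10.

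Paxip1 (ENSMUSG00000002221, chromosome 5 from 27740080 to 27791691) had 142, 137 and 127 CPM in Ctrl and 124, 124 and 125 CPM in the libraries labelled cKO. The 3 libraries labelled cKO agreed within an SD of 0.801 CPM and lay below every Ctrl library, the nearest of which was AI56. This made a log2 difference of -0.12 (SE 0.065, adjusted p = 0.28, interval from -0.26 to 0.02). Among all alternatives of processing, Paxip1 came nearest to the threshold after removal of the length trend of every library (-0.21, adjusted p = 0.052), and its adjusted p ranged from there up to 0.51. Ncoa6 (ENSMUSG00000038369, chromosome 2 from 155390656 to 155473894), a coactivator of nuclear receptors, had 146, 148 and 146 CPM in Ctrl and 155, 143 and 139 CPM in the libraries labelled cKO. Here Ctrl was tight (SD 1.09 CPM) and the libraries labelled cKO lay on both sides of it (SD 8.14 CPM). The fitted difference was -0.01 (SE 0.064, adjusted p = 0.95).

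**Figure D2:**
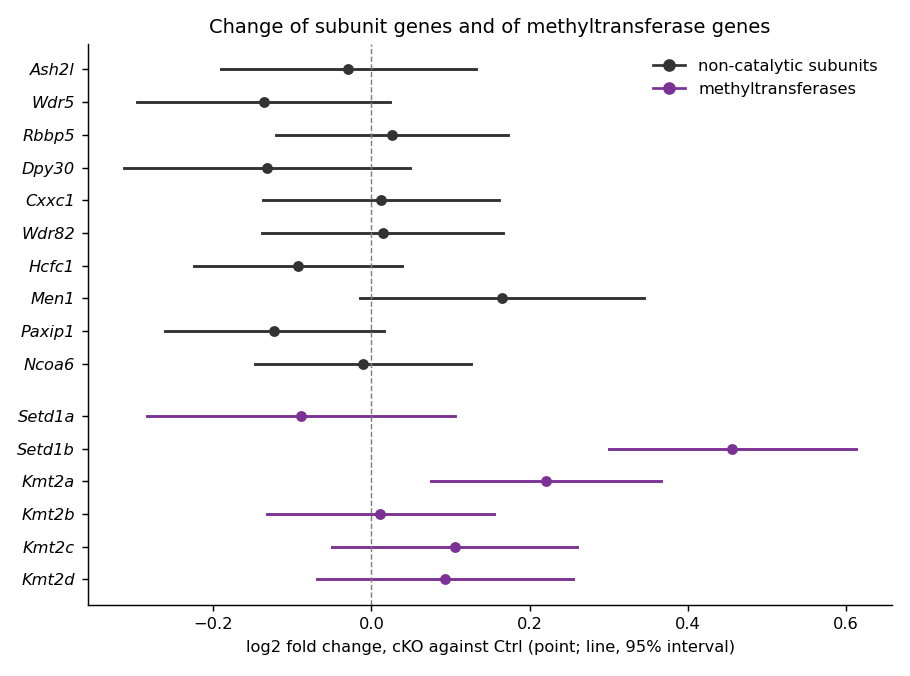
Log2 fold changes of libraries labelled cKO against Ctrl (x axis) are shown as points with their 95% intervals as lines, for the 10 subunit genes (black) and the 6 methyltransferase genes (purple). All 10 subunit intervals include 0 and lie between -0.31 and 0.34, whereas Setd1b lies at 0.46.

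Dpy30 and Paxip1 were thus the 2 genes of the 10 with no overlap between the groups, both lower in the libraries labelled cKO. Among all genes tested, 27.3% had no overlap in either direction and 13.4% were without overlap and lower, and of the genes in the same range of expression 34.5% had no overlap, so the count of 2 among 10 is not above the background. With 3 animals in each group, the smallest two-sided p of an exact permutation test on a single gene is 0.1. With the size factors of DESeq2 in place of TMM the count was 3.

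**Figure D3:**
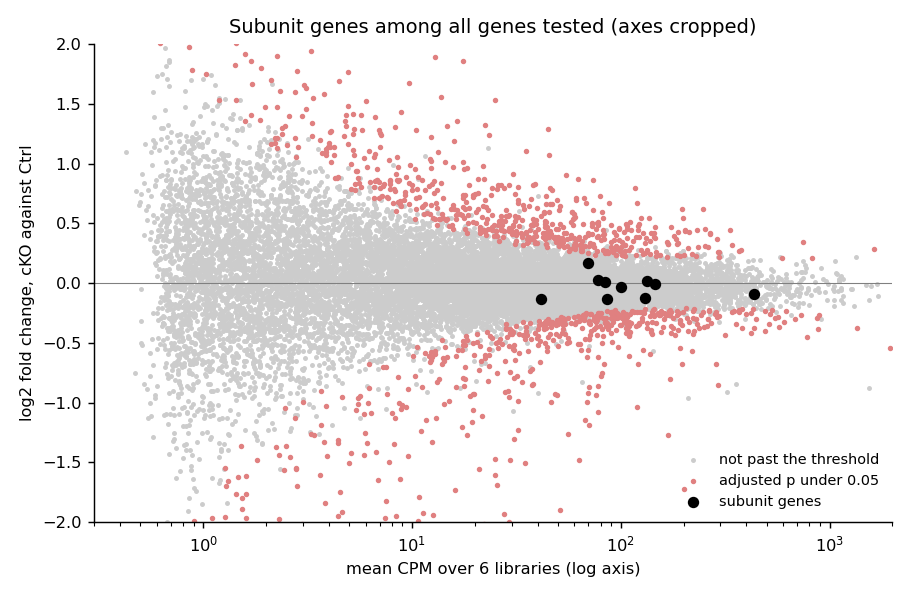
The log2 fold change of libraries labelled cKO against Ctrl (y axis) is plotted against the mean CPM over 6 libraries (log x axis) for all genes tested, within the cropped axes. The 10 subunit genes (black) lie at 41.5 to 436 CPM between -0.14 and 0.16, inside the band of genes that did not pass the threshold (grey) and away from those that did (red).

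To show the regulatory sequence of the 4 genes with the largest absolute differences (Men1, Wdr5, Dpy30 and Paxip1), the 250 bases before their annotated starts are given. They come from RefSeq (GRCm38.p6), run 5′ to 3′ on the strand of the gene and have every CG dinucleotide in capitals, the letters that the CXXC finger of Cxxc1 recognizes when unmethylated.
Men1 (chr19:6334729-6334978, forward strand): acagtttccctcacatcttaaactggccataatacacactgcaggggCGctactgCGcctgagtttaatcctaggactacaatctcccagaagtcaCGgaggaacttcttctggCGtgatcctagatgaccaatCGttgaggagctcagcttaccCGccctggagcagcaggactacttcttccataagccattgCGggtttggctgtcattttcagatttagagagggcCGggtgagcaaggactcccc
Wdr5 (chr2:27514897-27515146, forward strand): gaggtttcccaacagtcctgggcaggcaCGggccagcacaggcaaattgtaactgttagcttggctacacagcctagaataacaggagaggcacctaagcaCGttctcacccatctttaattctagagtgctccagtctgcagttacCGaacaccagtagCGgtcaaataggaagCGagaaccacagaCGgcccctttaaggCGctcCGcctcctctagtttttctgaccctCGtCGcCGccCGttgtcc
Dpy30, outermost start (chr17:74323945-74324194, reverse strand): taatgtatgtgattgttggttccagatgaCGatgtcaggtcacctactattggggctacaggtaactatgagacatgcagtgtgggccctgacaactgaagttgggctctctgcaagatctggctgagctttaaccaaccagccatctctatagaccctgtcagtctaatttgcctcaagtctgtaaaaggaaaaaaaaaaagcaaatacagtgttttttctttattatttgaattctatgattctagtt
Dpy30, second start (chr17:74316434-74316683, reverse strand): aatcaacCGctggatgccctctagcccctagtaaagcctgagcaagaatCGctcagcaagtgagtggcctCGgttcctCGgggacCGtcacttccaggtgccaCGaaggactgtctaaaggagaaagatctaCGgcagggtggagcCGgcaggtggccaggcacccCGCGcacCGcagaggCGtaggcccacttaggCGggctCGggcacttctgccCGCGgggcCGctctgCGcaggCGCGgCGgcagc
Paxip1 (chr5:27791551-27791800, reverse strand): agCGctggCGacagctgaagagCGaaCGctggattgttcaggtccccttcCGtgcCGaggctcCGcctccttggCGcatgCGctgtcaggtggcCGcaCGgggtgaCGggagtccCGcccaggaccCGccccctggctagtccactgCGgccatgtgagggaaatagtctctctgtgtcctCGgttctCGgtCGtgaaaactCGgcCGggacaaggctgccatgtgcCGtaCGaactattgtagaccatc

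Counted over these letters, the window of Paxip1 held 22 CG, that of Wdr5 12 and that of Men1 8. At least as many were found in 14.8%, 33.5% and 43.0% of all 32851 such windows in the RefSeq table. Men1 has 3 annotated starts within 60 bases of each other, of which the outermost is printed and the others had 10 and 9 CG, and the start used for Paxip1 lies 141 bases inside the gene of the count table. Dpy30 has 4 annotated starts. The outermost, which is also the end of the gene in the count table, had 1 CG, a number that 92.1% of windows reach, whereas the 3 starts 7511 to 7733 bases further into the gene had 21, 28 and 34. Of the other members with a window used, Wdr82 had 24, Hcfc1 19, Rbbp5 10 and Ncoa6 1, the last from a start 33111 bases inside the gene of the count table. The median window of the table had 6 CG, and 6 of the 8 members exceeded it at their outermost start. This is a description of the letters and says nothing about binding. The genes otherwise lie on different chromosomes, except Wdr5 and Ncoa6 on chromosome 2, and in the GENCODE annotation no exon of a member shares a base with an exon of another gene on either strand.

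Levels of different genes can be compared only per length, for which RPKM (TMM-scaled CPM per kilobase of exon) were used. Hcfc1 was highest at 52.2 ± 2.68 RPKM (SD, n = 6 libraries), followed by Dpy30 at 42.6 ± 2.55 and Cxxc1 at 32.1 ± 1.16. Each of these 3 lay above the next gene in 6 of 6 libraries, without overlap of their ranges. Then came Wdr5 (23.8 ± 1.76), Wdr82 (21.2 ± 1.2), Men1 (20.2 ± 1.92), Rbbp5 (19.8 ± 0.509) and Ash2l (19.2 ± 1.22), whose ranges overlapped from one to the next. Wdr5 exceeded Wdr82 in 5 of 6 libraries, Wdr82 exceeded Men1 in 4, Men1 exceeded Rbbp5 in 2 and Rbbp5 exceeded Ash2l in 5, so that this stretch has no firm order. Ncoa6 (15 ± 0.537) and Paxip1 (12.7 ± 0.755) were lowest, each separated from the gene above it in 6 of 6 libraries. All 10 stood above the median of the genes tested, from the percentile 68.7 (Paxip1) to 93.4 (Hcfc1) by RPKM.

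This order rests on the exon length of the gene model. In GENCODE M21, the exons of Ash2l sum to 8969 bases instead of 5236, those of Cxxc1 to 3925 instead of 2618 and those of Dpy30 to 1146 instead of 974. With these lengths Ash2l fell to 11.2 RPKM, the lowest of the 10, Cxxc1 fell to 21.4 RPKM, next to Wdr82 (21.2), and only 3 genes kept their rank. Hcfc1 (52.2) and Dpy30 (36.2) remained the highest 2. Fold changes between the groups do not depend on the exon length chosen for RPKM, although removal of a length trend of the libraries shifted some of them.

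**Figure D4:**
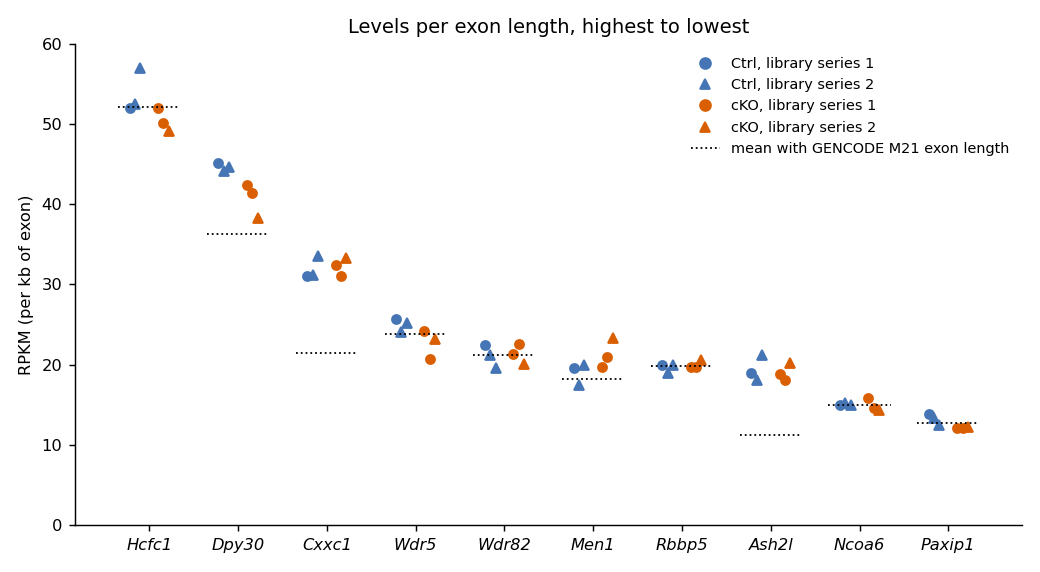
RPKM (y axis, from 0) of the 10 subunit genes in each library, ordered by the mean, with Ctrl in blue and cKO in orange and with circles and triangles for the library series. Dotted lines give the mean with the exon length of GENCODE M21, which is lower for Dpy30, Cxxc1, Ash2l and Men1.

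The levels of the enzymes were then set against those of their subunits within each library, a ratio that does not depend on the scaling between libraries. It can still depend on a length trend that differs between libraries. The ratios were not computed with such a trend removed. The size of a ratio also rests on the exon lengths chosen, which differ between annotations for genes such as Ash2l and Cxxc1. Its log2 difference between the groups hardly does. For all enzymes to Ash2l that difference was 0.1986 with the deposited lengths and 0.1987 with those of GENCODE M21. Summed over the 6 methyltransferase genes, RPKM were 6.36 ± 0.562 times those of Ash2l in Ctrl and 7.28 ± 0.257 times under the cKO label (SD, n = 3 mice a group). The ratio to Rbbp5 was 6.27 ± 0.310 and 6.93 ± 0.194. For Wdr5 it was 5.14, 4.77 and 4.88 in the Ctrl mice AI03, AI54 and AI56 and 5.49, 6.58 and 6.30 in the cKO mice AI02, AI55 and AH74. For Dpy30 it was 2.92, 2.60 and 2.76 in Ctrl and 3.13, 3.30 and 3.82 under the cKO label. With all 4 core subunits, every ratio in a library labelled cKO lay above every one in Ctrl. No share of such cases among other ratios was computed, and among single genes 27.3% had no overlap, so that the lack of overlap in these and the following ratios is a description. The differences were 0.20, 0.14, 0.31 and 0.30 on the log2 scale for Ash2l, Rbbp5, Wdr5 and Dpy30. In the first library series alone, with its single Ctrl library, they were 0.07, 0.04, 0.23 and 0.14. In the second, with its single cKO library, they were 0.26, 0.23, 0.38 and 0.51.

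These sums include Setd1b, whose count per gene does not separate transcripts of the recombined allele from others. Without Setd1b, the other enzymes gave ratios whose groups overlapped for Ash2l (5.45 ± 0.515 and 6.01 ± 0.196) and for Rbbp5 (5.37 ± 0.284 and 5.72 ± 0.133). They did not overlap for Wdr5 (4.22 ± 0.174 and 5.05 ± 0.448) or for Dpy30 (2.37 ± 0.142 and 2.82 ± 0.285). The 4 ratios share the same enzyme values and are not independent of each other. Set against its specific partners, Setd1b had 0.551 ± 0.038 times the RPKM of Cxxc1 in Ctrl and 0.749 ± 0.046 times in the libraries labelled cKO, and 0.839 ± 0.093 and 1.14 ± 0.137 times that of Wdr82, with no overlap in either case. For Setd1a, the other enzyme of Cxxc1 and Wdr82, the groups overlapped with both (0.181 ± 0.014 and 0.169 ± 0.0088 times Cxxc1). Kmt2a and Men1 stood at 1.69 ± 0.107 in Ctrl and 1.75 ± 0.055 under the cKO label, with overlap, both genes having the higher mean under the cKO label. Kmt2b to Men1 was 0.717 ± 0.025 and 0.645 ± 0.032, without overlap. Kmt2c, in turn, had 1.38, 1.18 and 1.30 times the RPKM of Paxip1 in Ctrl and 1.51, 1.5 and 1.51 times in the libraries labelled cKO, without overlap. Kmt2d to Paxip1 also had no overlap (2.82 ± 0.267 and 3.27 ± 0.219). Against Ncoa6, Kmt2c overlapped between the groups (1.13 ± 0.127 and 1.22 ± 0.070), and so did Kmt2d (2.47 ± 0.246 and 2.66 ± 0.315).

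**Figure D5:**
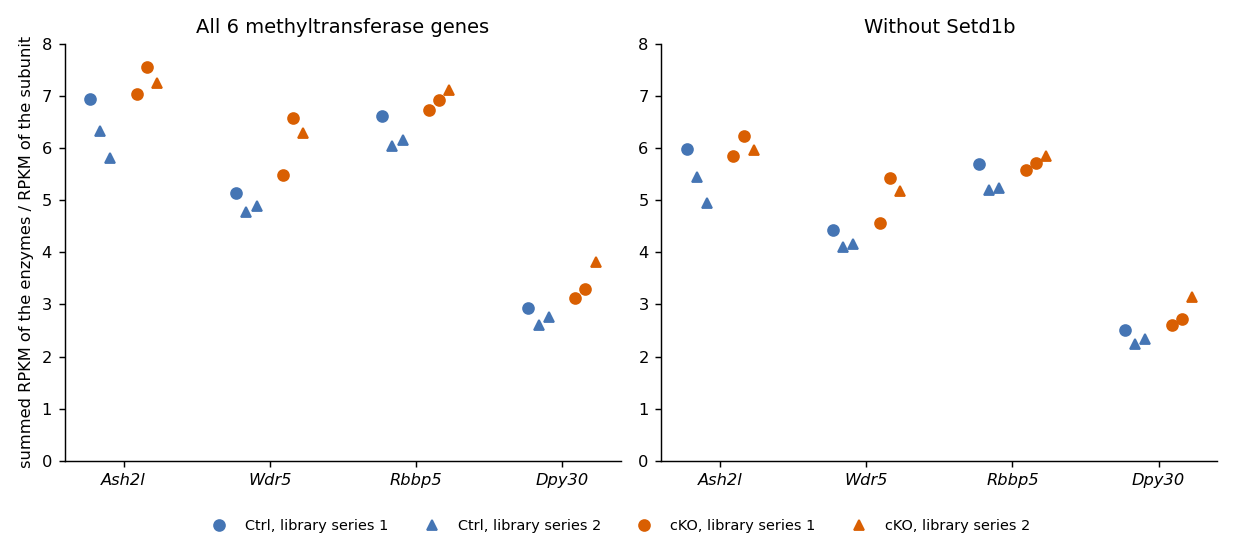
The summed RPKM of the methyltransferase genes divided by the RPKM of each core subunit (y axis, from 0) in every library, for all 6 enzyme genes (left) and without Setd1b (right), with Ctrl in blue, cKO in orange and circles and triangles for the library series. On the left no group overlaps, and on the right Ash2l and Rbbp5 overlap.

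The genes around these complexes were followed through lists of partners. Of the methyltransferase genes, 1 of 6 passed the threshold, beside 7.67% of all genes tested. This was the targeted gene, Setd1b, with a log2 fold change of 0.46 (SE 0.073, adjusted p = 0.0015). Kmt2a, the partner of menin, was next (0.22, adjusted p = 0.063), followed without passing by Kmt2c (0.11) and Kmt2d (0.09). Of 9 other accessory subunits, 8 were tested and 0 passed, the median being 0.03. The lowest p-values among them belonged to Kdm6a, the H3K27 demethylase of the Mll3/Mll4 complexes (0.20, adjusted p = 0.11), and to Wdr5b, a copy of Wdr5 (0.38, adjusted p = 0.19). Wdr5b had 7.42, 7.58 and 8.19 CPM in Ctrl and 10.7, 10.6 and 8.77 CPM in the libraries labelled cKO. Its groups did not overlap, as in 27.3% of all genes tested. Rbm15, an interaction partner of Setd1b, stood at -0.02 (adjusted p = 0.90).

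Ubiquitination of histone H2B, which precedes methylation by the Set1 complexes, and the PAF1 complex that directs it, were represented by 11 genes, none of which passed (median -0.04). Ctr9, the scaffold of PAF1, was closest, with 192, 236 and 172 CPM in Ctrl and 160.2, 167 and 160.5 CPM in the libraries labelled cKO. The groups did not overlap, as in 27.3% of all genes tested, and the log2 fold change was -0.30 (SE 0.092, adjusted p = 0.059). Of 8 listed targets of the menin and Mll1 complex, 8 were tested and 2 rose in the libraries labelled cKO, beside 7.67% of all genes tested that passed in either direction, Eya1 (0.72, adjusted p = 0.0028) and Mecom (0.45, adjusted p = 0.0032), while Hoxa7 did not pass (0.20, adjusted p = 0.15). Hoxa9, the best known of these targets, stood at 0.05 (adjusted p = 0.83) and Meis1 of 0.02 (adjusted p = 0.88). The median of the list was 0.16, against 0.00 for all genes tested. Mecom and Meis1 are also in the list of LSK markers.

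Men1, as the subunit gene with the smallest p, was compared with 14290 genes of at least 1 CPM for likeness of its log2 CPM over the 6 libraries. Closest were Smtn (Pearson r = 0.990), Cul7 (r = 0.988) and Zfp623 (r = 0.988), with 66 genes above 0.95. None of these 3 passed the threshold between the groups, with log2 fold changes of 0.19, 0.19 and 0.40, and like Men1 they share depth and library series with every gene of the same 6 libraries.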

How the data were processed

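Expression was measured by RNA-seq in LSK cells of 3 Ctrl and 3 cKO mice, grouped by the genotype labels. The authors aligned reads to GRCm38 (mm10) with GSNAP, assigned those with a unique alignment to Ensembl genes with featureCounts (1.5.0), strand-specifically and at a mapping quality of at least 1, and deposited raw counts for 45706 genes together with the exon length of each, which is used here for RPKM. Each of the 6 columns was matched to a mouse by name. GENCODE M21 gave a symbol for 98.8% of gene identifiers. The mice are separate animals. The study calls Ctrl and cKO mice littermates without naming the litters, so litters were not used.

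From the counts, edgeR 4.0.16 in R 4.3.3 gave TMM factors, a filter on low counts (filterByExpr defaults, 15184 genes) and a quasi-likelihood test of genotype on all 6 libraries, with Benjamini-Hochberg adjustment and a threshold of 0.05. Standard errors are the absolute log2 fold change over the square root of the F statistic, and 95% intervals use the t quantile with the test's degrees of freedom. CPM and RPKM are TMM-scaled. Log2 CPM used a prior count of 2. Depth of 532 reads or more per library for every subunit gene limits the counting error, which such intervals and SDs include. Alternatives were the size factors and the Wald test of DESeq2 1.42.0, other filters, the library series as a covariate, removal of length or GC trends (loess, span 0.3) or of abundant genes (394 genes), a threshold of 0.01 and leaving out each mouse. The procedure was tested on simulated data.

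The subunit genes and all lists were chosen with earlier results of these data known. The genes named are the subunits, Setd1b and, in each list, up to 4 genes with the smallest p-values. Ratios add the other methyltransferases, and Rbm15, Hoxa9, Meis1, Itgam, Cd3d, Cd3e, Ms4a1, Ppp1r10 and Tox4 were named after their values had been seen. The result of 1 listed marker gene is not reported here.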

Additional observations from a re-analysis of the deposited data

How the results depend on the processing

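With 14 alternatives, none of the 10 subunit genes passed the threshold in any, and 126 of 140 fitted values kept their direction. The other 14 belong to genes close to 0. The log2 fold change of Cxxc1 became -0.0070 with the length trend removed and -0.020 with the GC trend removed, that of Wdr82 -0.031 with the library series as a covariate and -0.050 with the length trend removed, and that of Rbbp5 -0.0028 with the length trend removed. With 1 mouse left out in turn, Cxxc1 ranged from -0.015 to 0.045, Wdr82 from -0.039 to 0.060, Ash2l from -0.080 to 0.032 and Ncoa6 from -0.057 to 0.017. The number of genes called over the whole table, 1164, was 513 at an adjusted p under 0.01. With 1 mouse left out it was 604 to 1125, below the main fit in every case and depending on the mouse (604 without cKO mouse AI55, 665 without Ctrl mouse AI56 and 739 without cKO mouse AH74). Exon lengths of GENCODE M21 kept 3 of the 10 ranks in level. In settings added after the data had been seen, the log2 difference of the enzyme to subunit ratio in the first and the second library series was 0.072 and 0.26 for Ash2l, 0.045 and 0.23 for Rbbp5 and 0.14 and 0.51 for Dpy30. The cause of these shifts was not tested. The study describes the Ctrl and cKO mice as littermates but does not say which of them share a litter. No paired analysis was possible because the labels name no replicate number, litter or pair that the groups share. The numbers given to replicates here follow only the order of the samples. Any difference between litters was left in the fit.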

Other observations

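Wdr5, Hcfc1 and Wdr82 also serve in complexes that do not methylate H3K4, and the genes of those partners were listed as well. Of 10 genes for the other complexes of WDR5 and HCFC1 none passed the threshold (median log2 fold change -0.01). Ogt, the O-GlcNAc transferase that cleaves Hcfc1, was read at 231, 245 and 192 CPM in Ctrl and at 253, 284 and 241 CPM in the libraries labelled cKO, with overlapping groups and a log2 fold change of 0.22 (adjusted p = 0.14). Bap1, a deubiquitinase bound to Hcfc1, had 78.1, 76.9 and 76.7 CPM in Ctrl and 71.0, 70.6 and 73.9 CPM in the libraries labelled cKO. Its groups did not overlap, as in 27.3% of all genes tested, and its log2 fold change was -0.10 (adjusted p = 0.41). Kansl2 of the NSL complex had -0.35 (adjusted p = 0.24) with means of 17.5 CPM in Ctrl and 13.9 CPM under the cKO label. For Wdr82, 6 genes of the phosphatase complex with Ppp1r10 and Tox4 and of the partner Zc3h4 lay between -0.07 and 0.03, none past the threshold.

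Proteins that read the H3K4 methyl mark were represented by 12 genes. None passed, and the median log2 fold change was 0.02. Spin1 came closest, at 84.6, 84.7 and 85.4 CPM in Ctrl and 104, 96.1 and 93.1 CPM in the libraries labelled cKO. Its groups did not overlap, as in 27.3% of all genes tested, and its log2 fold change was 0.20 (SE 0.069, adjusted p = 0.088). Bptf, of the remodeler NURF, had 0.10 (adjusted p = 0.40), and Phf8, a demethylase that binds the mark, had -0.06 (adjusted p = 0.70).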
